A study of Mus musculus with 12 samples.

Results

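RNA of the testis of mice labelled busulfan plus L.J., with L.J. at 10 mg/kg, was set against RNA of the testis of mice labelled control, with 3 libraries in each group. All mice were of the outbred ICR strain and 8 weeks old. The 6 libraries were chosen by their labels out of the 12 of the series, and the other 6, 3 labelled busulfan and 3 labelled L.J. at 10 mg/kg, entered the fit for its estimate of the spread. Genes were chosen by level. The 14675 genes with at least 1 FPKM in at least 3 of the 12 libraries were tested, out of 21004 in the table. FPKM is a fragment count divided by transcript length and by the mapped fragments of the library, so each value is a share of what was sequenced. Busulfan, a chemotherapy drug, alkylates DNA and kills dividing germ cells, and the question of the series is whether L.J. relieves its harm to the testis. The sources used here do not give what L.J. is, the dose of busulfan, the days between treatment and sampling or any vehicle given to the control mice. Directions below are those of the labels. Nor do the labels say whether the 3 libraries of a group came from separate mice. The p-values measure the spread between libraries within the 4 groups, which may be technical. In whole testis, fewer cells of a type and less RNA per cell cannot be told apart.

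Sperm are made in the seminiferous tubule, where spermatogonia divide, spermatocytes go through meiosis and spermatids are reshaped into sperm. Round spermatids build the acrosome, the enzyme sac of the sperm head. Elongating spermatids exchange their histones for transition proteins and then for protamines, and assemble the tail. Sertoli cells nurse the germ cells inside the tubule, peritubular myoid cells wrap it, and Leydig cells between the tubules make testosterone and the peptide hormone Insl3. Macrophages, vessels and connective tissue fill the rest of the interstitium.

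Transcripts of late spermatids were higher in the libraries labelled busulfan plus L.J., and, as deposited, transcripts of Sertoli cells, Leydig cells, macrophages and connective tissue were lower. In all, 1903 of 14675 genes rose and 7856 fell past an adjusted p of 0.05 by limma, which is 13% and 53.5% of the genes tested and 66.5% in both directions together. An absolute log2 change of at least 1 was reached by 4192 of them, with 1119 higher (7.63% of the genes tested) and 3073 lower (20.9%). The 2 groups did not overlap for 11842 genes (80.7% of the genes tested), with 2531 higher (17.2%) and 9311 lower (63.4%).

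The balance of rises and falls rests on how the libraries are scaled. Over all genes the median log2 change was -0.55 with the values as deposited. It was -0.17 once the libraries were quantile normalized, 0.00 once each was scaled to its own median (median scaling) and 0.67 once each was scaled to the Sertoli cell list (Sertoli scaling). Of the calls, 19.5% were higher as deposited. That share was 44% of 6013 calls with quantile normalization, 58% of 5942 with median scaling and 97.7% of 4055 with Sertoli scaling. FPKM summed to between 498662 and 535515 in the busulfan plus L.J. libraries and between 438116 and 450377 in the control libraries. The 10 most abundant genes took 11.1% to 13.6% of that sum in the busulfan plus L.J. libraries and 4.56% to 4.88% in the control libraries. The part of these shares in the many small falls was not tested. A list of genes is therefore described below by its counts and its median as deposited, with scaled medians beside them for most lists.

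The busulfan plus L.J. libraries were closer to each other than the control libraries were. Pearson correlations across genes were 0.987 to 0.989 among the busulfan plus L.J. libraries and 0.955 to 0.978 among the control libraries, and the median SD of log2(FPKM + 1) was 0.12 in busulfan plus L.J. and 0.192 in control. In the 2 groups that only entered the estimate of the spread, the median SD was 0.163 for busulfan and 0.423 for L.J. Calls against control numbered 9759 with the L.J. group in the fit and 11283 without it. Replicate 2 of control lay nearest to busulfan plus L.J. in spermatid and in Sertoli, Leydig and macrophage genes. The libraries hold no read counts, so their depth is unknown.

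**Figure D1:**
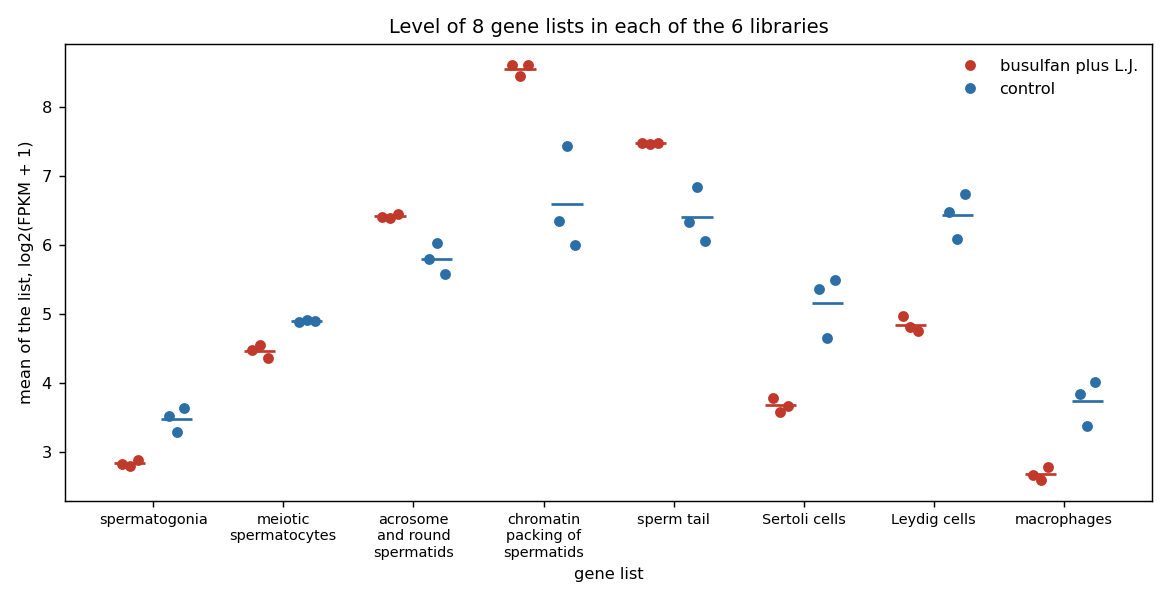
Mean log2(FPKM + 1) of 8 gene lists (vertical axis) in each of the 6 libraries, busulfan plus L.J. in red and control in blue, with 1 point per library and a bar at the mean of the 3. The lists of spermatid chromatin packing, sperm tail and acrosome lie higher in all 3 busulfan plus L.J. libraries, and the other 5 lists lie lower as deposited, with the median changes of the spermatogonial and meiotic lists turning to 0.35 and 0.74 after Sertoli scaling.

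The largest rises were genes of the last steps of sperm making. Tnp2, a transition protein that replaces histones in spermatids (gene 21959, chromosome 16, 10787935 to 10788655, GRCm38), had 10735, 9144 and 12446 FPKM in busulfan plus L.J. replicates 1 to 3, against 595, 1927 and 375 FPKM in control replicates 1 to 3. The lowest busulfan plus L.J. library stood well above the highest control library, which was replicate 2. Tnp2 changed by 3.82 ± 0.65 on the log2 scale (SE; adjusted p = 0.00207 by limma). Prm2, a protamine that packs sperm DNA (gene 19119, chromosome 16, 10791377 to 10792105), had 9937, 8819 and 11513 FPKM against 547, 2064 and 384 FPKM in control, a log2 change of 3.73 ± 0.66. Tnp1, the other transition protein (gene 21958, chromosome 1, 73015074 to 73015899), had 5386, 4434 and 5434 FPKM against 298, 1035 and 231 FPKM in control, a log2 change of 3.61 ± 0.62. In each of these genes control replicate 2 was the highest of its group and replicate 3 the lowest.

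The other 7 of the 10 largest rises follow. Smcp, a cysteine-rich protein of the sperm mitochondrial capsule (gene 17235, chromosome 3, 92583866 to 92589073), was the most abundant gene of the busulfan plus L.J. libraries. It had 9747, 11895 and 16350 FPKM in busulfan plus L.J. against 1000, 2211 and 533 FPKM in control, a log2 change of 3.55 ± 0.67. Spata3, named for its association with spermatogenesis, had 1396, 1236 and 1584 FPKM against 92.7, 238 and 60.1 FPKM in control, a log2 change of 3.66 ± 0.60. Dnajb8, a J-domain partner of heat shock proteins, averaged 596 ± 92.9 FPKM against 63.2 ± 52.8 FPKM in control (SD, n = 3 each), a log2 change of 3.51. Tppp2, of a family that promotes tubulin polymerization, averaged 572 ± 138 FPKM against 52.5 ± 43 FPKM in control, a log2 change of 3.71. Arl9, a small GTPase of the ADP-ribosylation factor family, rose by 3.77 on the log2 scale, and Trp53tg5 by 3.50. Zc2hc1b, a zinc finger gene, had the largest log2 change of the 10, 4.03 ± 0.63, with 55.5, 53.8 and 74.2 FPKM in busulfan plus L.J. against 2.52, 7.59 and 0.76 FPKM in control. All 10 kept their call without any 1 of the 12 libraries.

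**Figure D2:**
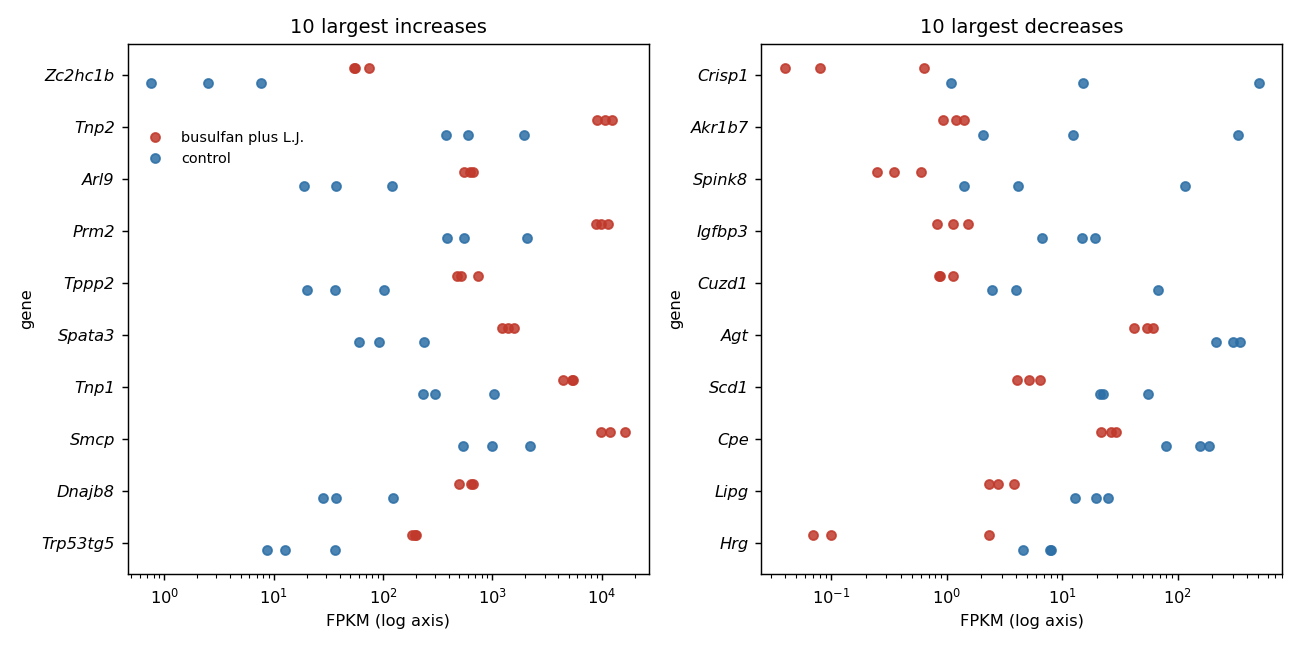
FPKM on a log axis of the 10 largest rises (left) and the 10 largest falls (right), with 1 point per library, busulfan plus L.J. in red above control in blue. The red and blue points of a gene do not overlap, and in Crisp1, Akr1b7, Spink8 and Cuzd1 a single control library lies far to the right of the other two.

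Several of the genes that rose shared a short sequence just upstream of their start site. The promoters below are the 150 bases before the start of transcription in RefSeq (GRCm38.p6), written 5′ to 3′ on the strand of the gene. They belong to genes with large rises that lie on 3 chromosomes. Prm1 and Gapdhs lie outside the 10 largest rises named above, and the rest of those 10 are not shown. The display therefore says nothing of how often the pattern occurs among large rises. Capitals mark TGANNTCA, a pattern that holds the 2 ends of the cAMP response element, TGACGTCA, and leaves its 2 middle bases free. That element is bound in spermatids by the activator CREM, as background.
Prm1, chr16:10796824-10796973, minus strand: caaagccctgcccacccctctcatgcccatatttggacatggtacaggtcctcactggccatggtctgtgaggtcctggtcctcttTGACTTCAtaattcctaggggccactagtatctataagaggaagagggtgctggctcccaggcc
Tnp1, chr1:73015900-73016049, minus strand: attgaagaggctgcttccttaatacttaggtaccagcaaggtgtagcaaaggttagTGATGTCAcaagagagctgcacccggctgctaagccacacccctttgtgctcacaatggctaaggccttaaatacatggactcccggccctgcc
Gapdhs, first promoter, chr7:30739408-30739557, minus strand: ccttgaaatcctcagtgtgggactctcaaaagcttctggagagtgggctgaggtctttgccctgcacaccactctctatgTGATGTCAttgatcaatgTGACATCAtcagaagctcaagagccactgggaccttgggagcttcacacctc
Gapdhs, second promoter, chr7:30743682-30743831, minus strand: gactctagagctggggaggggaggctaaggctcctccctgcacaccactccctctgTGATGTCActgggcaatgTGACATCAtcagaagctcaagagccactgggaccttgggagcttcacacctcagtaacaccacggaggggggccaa
Spata3, chr1:86021795-86021944, plus strand: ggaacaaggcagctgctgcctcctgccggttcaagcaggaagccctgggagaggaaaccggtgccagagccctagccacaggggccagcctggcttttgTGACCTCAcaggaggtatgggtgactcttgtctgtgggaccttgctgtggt
Prm2, chr16:10792106-10792255, minus strand: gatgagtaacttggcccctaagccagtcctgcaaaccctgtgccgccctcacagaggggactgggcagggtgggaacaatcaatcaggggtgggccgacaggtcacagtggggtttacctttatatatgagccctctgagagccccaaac

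The match of Prm1 begins at base -64 from its start, that of Tnp1 at -94 and that of Spata3 at -51. Both promoters of Gapdhs, the glycolytic enzyme of sperm, hold the same pair of matches, at -70 and -52 in the first and at -94 and -76 in the second. The window of Prm2 holds no match. Prm1 is a protamine (gene 19118, chromosome 16, 10796332 to 10796823) and had 4551, 3600 and 4087 FPKM in busulfan plus L.J. against 323, 1386 and 257 FPKM in control, a log2 change of 3.06 ± 0.67. Gapdhs (gene 14447, chromosome 7, 30729779 to 30744791) had 2096, 2021 and 3058 FPKM against 230, 529 and 130 FPKM in control, a log2 change of 3.22 ± 0.58.

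Over all genes the pattern was more frequent upstream of genes that rose. TGANNTCA reads the same on both strands and stood in 8.37% of 32851 mouse promoters of this length. Of protein-coding genes tested outside chromosome 18, the 82.5% with a promoter in RefSeq were counted. The pattern stood in 25.1% of 887 such genes that rose by at least 1 on the log2 scale. It stood in 6.01% of 2481 that fell by at least 1, and in 9.38% of all 11639. The full element TGACGTCA, which the looser pattern includes, stood in 2.48%, 2.14% and 2.58% of the same 3 sets. AAGGTCA on either strand, a site that some nuclear receptors bind as monomers, stood in 4.17%, 1.98% and 2.19%. By list, TGANNTCA stood upstream of 6 of 19 acrosome and round spermatid genes with a promoter in the table, 4 of 14 chromatin packing genes and 7 of 32 sperm tail genes, against 2 of 26 meiotic, 0 of 12 spermatogonial, 0 of 11 Sertoli and 2 of 10 Leydig genes. Lists with medians below 0 as deposited also reached shares in or near that range, with 3 of 10 genes of antigen presentation, 2 of 8 of myoid cells, 3 of 14 of cholesterol synthesis and 2 of 11 of macrophages. These 3 patterns were chosen after the changes had been seen and are given as a description with no test.

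The promoters of the genes that rose were also poor in CpG. The ratio of observed CpG to the number its C and G content would give was taken in the 300-base promoter, for genes with a promoter. Its median was 0.279 in genes that rose by at least 1, 0.729 in genes that fell by at least 1 and 0.712 in all such genes tested. The median GC content was 52.7%, 61.2% and 59.7%. The median coding length was 1138, 1248 and 1344 bases. The genes that rose by at least 1 after Sertoli scaling had a median ratio of 0.524, with TGANNTCA in 16.9% of them.

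Among germ cells, the medians of the 3 spermatid lists lay above 0 as deposited and under each scaling. Those of the spermatogonial, meiotic and piRNA lists lay below 0 as deposited and above 0 after Sertoli scaling. Of 14 genes that pack the chromatin of spermatids, 10 rose and 2 fell. The median change of the list was 2.73 as deposited and 2.34, 3.37 and 4.11 under quantile, median and Sertoli scaling. The mean level of the list was 8.44 to 8.61 in the 3 busulfan plus L.J. libraries and 5.99 to 7.43 in the 3 control libraries, on the log2(FPKM + 1) scale. Prm3, of the protamine cluster, averaged 1099 FPKM against 136 FPKM in control, a log2 change of 3.19. The 2 that fell act on histones or DNA damage and are made in many cells. Sirt1, a deacetylase, had 7.85, 7.35 and 6.01 FPKM against 16.2, 17.4 and 17 FPKM in control, a log2 change of -1.15 that was 0.20 after Sertoli scaling. Rnf8, a ubiquitin ligase of the DNA damage response, had 4.48, 3.76 and 3.65 FPKM against 9.09, 8.52 and 9.57 FPKM in control, a log2 change of -1.02 that was 0.24 after Sertoli scaling.

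Of 36 genes of the sperm tail, 19 rose and 3 fell, with a median of 0.85 as deposited, 0.79, 1.5 and 2.27 under quantile, median and Sertoli scaling. Odf1, a protein of the outer dense fibres, had 1569, 1463 and 1537 FPKM in busulfan plus L.J. against 164, 403 and 128 FPKM in control, a log2 change of 2.90 ± 0.50 with an adjusted p of 0.00208 by limma. Akap4, the main scaffold of the fibrous sheath, had 639, 650 and 561 FPKM against 93.5, 222 and 67.5 FPKM in control, a log2 change of 2.45 ± 0.47. Spem1, needed for the removal of spermatid cytoplasm, had 380, 322 and 416 FPKM against 27.5, 104 and 19.4 FPKM in control, a log2 change of 3.24 ± 0.59. The 3 that fell were Dnah1 (-0.59) and Dnah17 (-0.58), both axonemal dyneins, and Spag6l (-0.60), of the central pair of the axoneme. Their count was 0 without busulfan plus L.J. replicate 1 or 3 or without control replicate 2 or 3, and 1 without control replicate 1, and all 3 changes lay above 0 after median and Sertoli scaling. The level of the list was 7.46 to 7.48 in busulfan plus L.J. and 6.05 to 6.84 in control.

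In the list of acrosome and round spermatid genes 11 of 23 rose and none fell. The median was 0.60 as deposited and 0.74, 1.25 and 2.04 under the same 3 scalings. Acrv1, an acrosomal vesicle protein, had 175, 172 and 201 FPKM in busulfan plus L.J. against 57.9, 81.8 and 49.4 FPKM in control, a log2 change of 1.55 ± 0.35 with an adjusted p of 0.00445 by limma. Spaca7, released from the acrosome at fertilization, had 174, 183 and 199 FPKM against 59.5, 64.8 and 43.2 FPKM in control, a log2 change of 1.73. Sox30, a transcription factor that spermatids need, had 212, 203 and 222 FPKM against 64.5, 85.1 and 51 FPKM in control, a log2 change of 1.68. Eqtn, of the acrosomal membrane, rose by 1.53 and Spaca1, which shapes the acrosome, by 1.22. The control libraries kept the order seen in the protamines, replicate 2 highest and replicate 3 lowest, in each gene of this list for which single values are given here.

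Of 33 meiotic genes, 18 fell and 1 rose, with a median of -0.61 as deposited and -0.22, -0.02 and 0.74 under quantile, median and Sertoli scaling. That is close to the median of all genes, -0.55, and the share that fell, 54.5%, is near the background of 53.5%. When L.J. replicate 2 was left out 2 genes rose, and when L.J. replicate 3 was left out 4 rose. Spo11, which makes the breaks that start recombination, had 9.24, 9.44 and 8.65 FPKM in busulfan plus L.J. against 21, 25.1 and 20.3 FPKM in control, a log2 change of -1.19 ± 0.30 that was 0.19 after Sertoli scaling. Meiob, a single-strand DNA binding protein of recombination, had 7.83, 8.97 and 6.95 FPKM against 18.1, 15.7 and 20.2 FPKM in control, a log2 change of -1.09 that was 0.28 after Sertoli scaling. Syce2, of the central element of the synaptonemal complex, went the other way under each scaling, with 142, 131 and 131 FPKM against 51.5, 75.9 and 54.1 FPKM in control and a log2 change of 1.16 ± 0.22.

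Factors of the piRNA pathway, which keeps transposons silent in germ cells, had 10 of 17 genes lower and none higher. That share, 58.8%, and the median of -0.59 as deposited are near the 53.5% and -0.55 of all genes, and the median was -0.46, 0.04 and 0.79 under quantile, median and Sertoli scaling. Piwil2, a Piwi protein, had 22.2, 21.7 and 18.2 FPKM in busulfan plus L.J. against 43.3, 48.4 and 40.3 FPKM in control, a log2 change of -1.05 ± 0.19 that was 0.38 after Sertoli scaling. Tdrd1, its Tudor domain partner, had 26.7, 28.7 and 23.8 FPKM against 49, 58.5 and 47.6 FPKM in control, a log2 change of -0.94 that was 0.50 after Sertoli scaling.

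Of 15 spermatogonial genes tested out of 20 listed, 11 fell (73.3%, against 53.5% of all genes) and none rose. The median was -0.71 as deposited, against -0.55 of all genes, and -0.22, -0.24 and 0.35 under quantile, median and Sertoli scaling. Kit, the receptor of differentiating spermatogonia that Leydig cells also carry, had 3.71, 3.15 and 3.43 FPKM in busulfan plus L.J. against 15.8, 10.1 and 15.7 FPKM in control, a log2 change of -1.72 ± 0.35 with an adjusted p of 0.00288 by limma. Dmrt1, a sex determination factor of spermatogonia and Sertoli cells, had 11.6, 11.2 and 13.2 FPKM against 32.2, 22.3 and 34.3 FPKM in control, a log2 change of -1.21 that was 0.20 after Sertoli scaling. The number that fell was 5 when busulfan plus L.J. replicate 1 was left out, 6 for replicate 2, 7 for replicate 3, and 5 for control replicate 1 or 3. In these genes control replicate 2 was the lowest of its group, the reverse of its place in the spermatid genes.

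**Figure D3:**
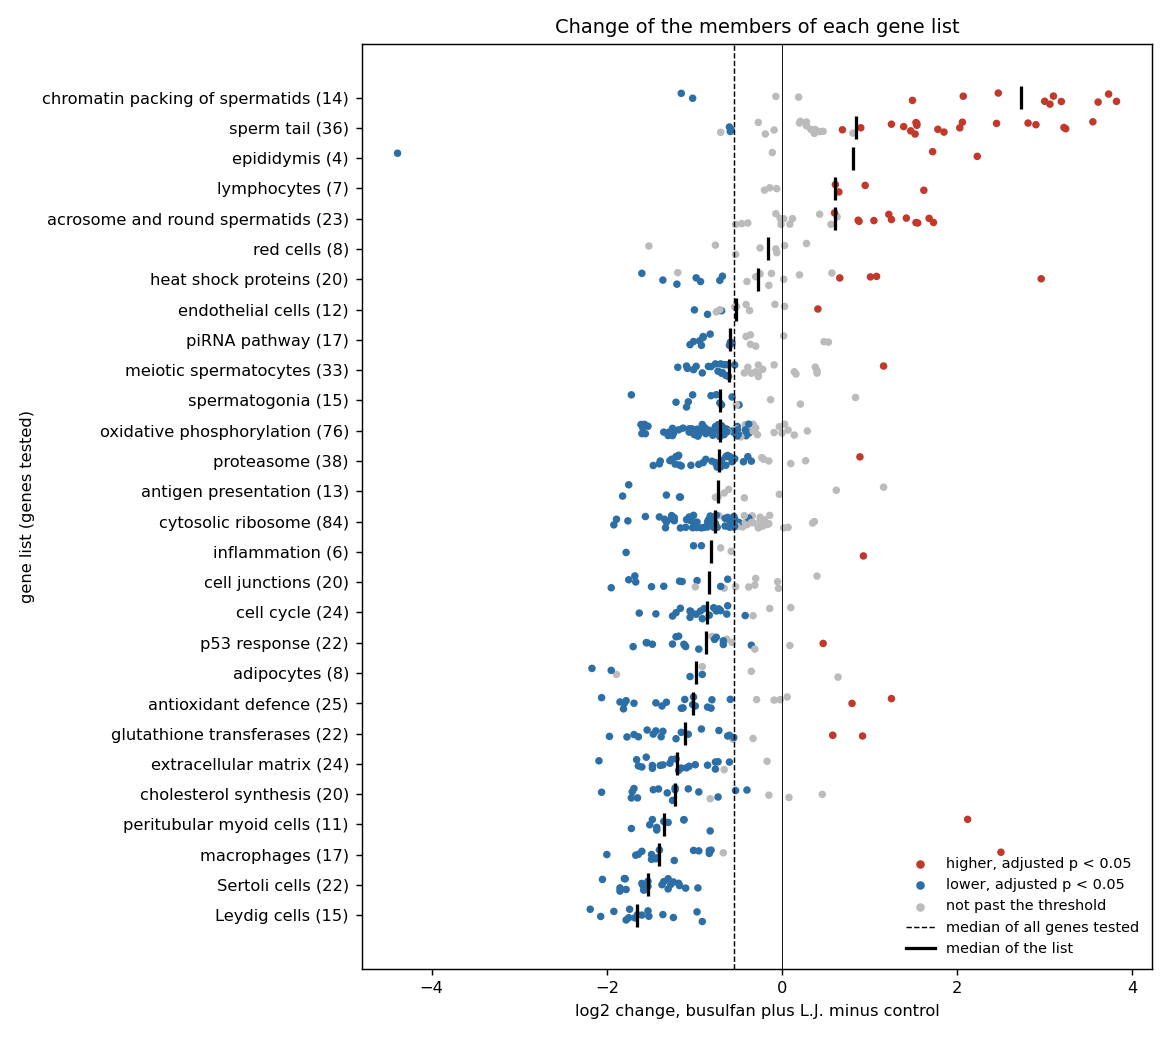
Log2 change, busulfan plus L.J. minus control, of each tested gene (points) of 28 gene lists, with the number tested in brackets, a bar at the median of a list and a dashed line at the median of all genes, -0.55. The spermatid lists lie to the right of the line and the Sertoli, Leydig, myoid and macrophage lists to the left, all as deposited. The medians of those 4 lists are between -1.60 and -0.75 under quantile and median scaling. After scaling to Sertoli markers they are between -0.20 and 0.04.

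All 22 Sertoli genes tested fell as deposited, with a median of -1.53. The median was -1.16 and -0.88 under quantile and median scaling and, since these genes set the scale there, near 0 under Sertoli scaling (-0.17). Vim, the intermediate filament of Sertoli and other somatic cells, had 17.9, 15 and 14.3 FPKM in busulfan plus L.J. against 78, 47.5 and 85.2 FPKM in control, a log2 change of -2.05 ± 0.48 with an adjusted p of 0.0048 by limma. Inha, the inhibin subunit that signals to the pituitary, had 42.2, 33.6 and 42.4 FPKM against 168, 96.3 and 184 FPKM in control, a log2 change of -1.85 ± 0.43. The count was 13 without control replicate 3. The level of the list was 3.58 to 3.78 in busulfan plus L.J. and 4.64 to 5.49 in control, with no overlap.

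All 15 Leydig genes tested fell too, with a median of -1.65 as deposited and -1.60, -0.99 and -0.20 under quantile, median and Sertoli scaling. Insl3, which guides descent of the testis (gene 16336, chromosome 8, 71689252 to 71690577), was the second most abundant gene of the control libraries. It had 1177, 958 and 954 FPKM in busulfan plus L.J. against 3519, 2542 and 4484 FPKM in control, a log2 change of -1.74 ± 0.46 with an adjusted p of 0.00813 by limma. Cyp11a1, which makes the first cut in steroid synthesis (gene 13070, chromosome 9, 57998024 to 58027031), had 56.5, 51 and 50.6 FPKM against 283, 176 and 294 FPKM in control, a log2 change of -2.19 ± 0.40. Lhcgr, the receptor of luteinizing hormone, had 5.3, 5.28 and 4.76 FPKM against 26.8, 16.3 and 34 FPKM in control, a log2 change of -2.07. Star, which carries cholesterol into the mitochondrion, had 34.4, 33.5 and 22.6 FPKM against 88, 68.7 and 129 FPKM in control, a log2 change of -1.60.

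Of 11 genes of peritubular myoid cells, 10 fell and 1 rose, with a median of -1.35 as deposited. The median was -0.96, -0.75 and 0.04 under quantile, median and Sertoli scaling. The fall counted 6 genes without busulfan plus L.J. replicate 2 and 5 without control replicate 3. Acta2, smooth muscle actin, had 14.6, 15.4 and 17.1 FPKM in busulfan plus L.J. against 46.8, 36.1 and 92.8 FPKM in control, a log2 change of -1.72 ± 0.37. Actg2, enteric smooth muscle actin, rose under each scaling, with 208, 161 and 211 FPKM against 26.9, 61.1 and 49.9 FPKM in control and a log2 change of 2.12 ± 0.38. Of 24 genes of the extracellular matrix, 22 fell and none rose, with a median of -1.20. It was -0.65, -0.64 and 0.06 under the same 3 scalings. Decorin, Dcn, a proteoglycan of connective tissue, had 20.6, 16.6 and 19.1 FPKM against 81.6, 53.1 and 130 FPKM in control, a log2 change of -2.09.

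Of 17 macrophage genes, 15 fell and 1 rose, with a median of -1.40 as deposited. That median was -0.84, -0.76 and -0.08 under quantile, median and Sertoli scaling. Lyz2, lysozyme, had 9.69, 6.44 and 11.2 FPKM in busulfan plus L.J. against 33.1, 27.1 and 64.1 FPKM in control, a log2 change of -2.0 ± 0.35 with an adjusted p of 0.0021 by limma. C1qa, a complement chain made by macrophages, had 6.51, 5.69 and 6.55 FPKM against 22.3, 16.1 and 29.8 FPKM in control, a log2 change of -1.67. Aif1, a calcium-binding protein used as a macrophage marker, rose under each scaling, with 414, 347 and 425 FPKM against 63.3, 113 and 45.4 FPKM in control and a log2 change of 2.50 ± 0.42. Its order among the control libraries, replicate 2 highest and replicate 3 lowest, was that of the spermatid genes. Aif1 is part of the summed level of the 18 listed macrophage genes, which was 418 to 513 FPKM in busulfan plus L.J. and 271 to 346 FPKM in control.

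Lists of other cells and tissues differed in their calls. Of 12 endothelial genes, 4 fell (33.3%, against 53.5% of all genes) and 1, Flt1, a receptor of vascular growth factor, rose (0.41). The median was -0.53 as deposited, near the -0.55 of all genes, and -0.08, -0.13 and 0.40 under quantile, median and Sertoli scaling. These calls were 1 lower and 0 higher without busulfan plus L.J. replicate 2 or 3 or without control replicate 1 or 3, and 7 lower without L.J. replicate 3. Of 15 lymphocyte genes in the table, 7 were high enough to be tested, and 4 of the 7 rose (57.1%, against 13% of all genes). Among them Cd3d, of the T cell receptor complex, had 4.27, 3.75 and 4.43 FPKM against 2.44, 2.82 and 1.68 FPKM in control. Genes that pass such a filter through 1 group can only differ in its direction, though Cd3d reached 1 FPKM in every control library too. Cd79a, another of the 4, had 1.52, 1.12 and 11.2 FPKM against 0.18, 0.22 and 0.57 FPKM in control. Its adjusted p of 0.0365 by limma was 0.149 without busulfan plus L.J. replicate 3. The list median was 0.61 as deposited and 0.95, 0.92 and 1.28 under quantile, median and Sertoli scaling. The 4 became 2 without busulfan plus L.J. replicate 3 or control replicate 1. Of 8 genes of red cells, none passed by limma as deposited, and the summed level of the list overlapped, at 94.9 to 395 FPKM in busulfan plus L.J. and 177 to 260 FPKM in control.

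In 4 of the 10 largest falls, control replicate 3 stood far above the other libraries. Crisp1, a secreted protein of the epididymis (gene 11571, chromosome 17, 40293758 to 40319207), had 0.08, 0.64 and 0.04 FPKM in busulfan plus L.J. against 1.09, 15.1 and 503 FPKM in control. Its log2 change of -4.39 ± 1.63 had an adjusted p of 0.0328 by limma, which was 0.0732, 0.0609 and 0.0782 when busulfan plus L.J. replicate 1, 2 or 3 was left out and 0.127 without control replicate 3. Akr1b7, an aldo-keto reductase first named for the vas deferens, had 1.41, 0.93 and 1.2 FPKM against 2.05, 12.4 and 332 FPKM in control. Its log2 change was -3.46, and its adjusted p of 0.0254 was 0.052, 0.063 and 0.0588 with the same 3 busulfan plus L.J. libraries left out in turn, while the call held without control replicate 3. Spink8, a protease inhibitor, had 0.25, 0.35 and 0.6 FPKM against 1.43, 4.16 and 116 FPKM in control. Its log2 change was -3.03, and its adjusted p of 0.0309 was 0.071, 0.0696 and 0.0621 without the same 3 libraries and 0.0662 without control replicate 3. Cuzd1 had 0.88, 1.13 and 0.86 FPKM against 2.47, 3.97 and 68.2 FPKM in control. Its log2 change was -2.44, and its adjusted p of 0.0315 was 0.0692, 0.0637, 0.0733 and 0.0735 without the same 4 libraries.

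The epididymal list as a whole did not follow Crisp1. Of its 12 genes 4 passed the filter. Cst8, a cystatin that the testis makes too, and Defb21, a defensin, rose by 2.23 and 1.72 on the log2 scale. Defb21 had 0.44, 0.57 and 0.15 FPKM in control, so it passed the filter through other groups and could only differ in that direction. Crisp1, which passed it through groups other than busulfan plus L.J., fell. That fall was lost without any 1 of busulfan plus L.J. replicates 1, 2 and 3 and control replicate 3, which left 2 higher and 0 lower. The list summed to 178, 140 and 138 FPKM in busulfan plus L.J. replicates 1 to 3 and to 25.9, 73 and 557 FPKM in control replicates 1 to 3. The summed level of 12 adipocyte genes was high in the same control library. It was 23.4, 61.8 and 29.9 FPKM in busulfan plus L.J. against 36.6, 81.1 and 304 FPKM in control. Fabp4 had 3.36, 28.8 and 8.14 FPKM against 13.1, 30.8 and 132 FPKM in control. Adipoq did not follow the sum, with 9.57, 8.64 and 8.71 FPKM against 2.12, 6.86 and 9.74 FPKM in control and overlapping groups. Of the 8 adipocyte genes tested 4 fell and none rose as deposited. The 4 became 1 without busulfan plus L.J. replicate 1 or 3 or control replicate 3, 2 without busulfan replicate 2 or 3 or control replicate 2, and 7 without control replicate 1.

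The other 6 of the 10 largest falls were low in all 3 busulfan plus L.J. libraries, did not rest on 1 library and kept their direction under each scaling. Igfbp3, which binds insulin-like growth factors, had 1.13, 0.83 and 1.52 FPKM in busulfan plus L.J. against 19.2, 6.76 and 14.8 FPKM in control, a log2 change of -2.66 ± 0.65 with an adjusted p of 0.00564 by limma. Agt, the precursor of angiotensin, had 54.3, 41.5 and 61.2 FPKM against 347, 214 and 301 FPKM in control, a log2 change of -2.42 ± 0.39. Scd1, a fatty acid desaturase, had 5.19, 6.45 and 4.09 FPKM against 21.2, 22.5 and 55.4 FPKM in control, a log2 change of -2.32. Cpe, which trims peptide hormones, had 26.5, 21.9 and 29 FPKM against 156, 78.5 and 185 FPKM in control, a log2 change of -2.31. Lipg, a lipase of vessel walls, also fell by 2.31, with 2.79, 3.84 and 2.34 FPKM against 19.6, 12.9 and 24.9 FPKM in control. Hrg, a histidine-rich plasma protein, had 2.34, 0.07 and 0.1 FPKM against 8.07, 4.62 and 7.92 FPKM in control, a log2 change of -2.28.

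Lists of defence and damage genes differed in the share that fell as deposited, from 38.5% of antigen presentation to 77.3% of glutathione transferases, against 53.5% of all genes. Their medians stayed below 0 under quantile and median scaling and turned above 0 after Sertoli scaling. Of 25 antioxidant genes, 19 fell and 2 rose, with a median of -1.02 as deposited. It was -0.68, -0.51 and 0.24 under quantile, median and Sertoli scaling. Gpx1, a glutathione peroxidase, had 8.64, 5.4 and 9.18 FPKM in busulfan plus L.J. against 28.2, 23.1 and 40.7 FPKM in control, a log2 change of -1.85 ± 0.40. The 2 that rose were Srxn1, which repairs oxidized peroxiredoxins (1.25), and Prdx4, a peroxiredoxin of the secretory pathway with a role in spermatids (0.80). Gpx4, the peroxidase that hardens the sperm midpiece, had 361, 277 and 346 FPKM against 258, 371 and 320 FPKM in control, with overlapping groups. Its change was 0.06 on the log2 scale as deposited (adjusted p = 0.857 by limma), and -0.36, 0.74 and 1.54 under quantile, median and Sertoli scaling.

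Glutathione transferases conjugate busulfan in its main route of breakdown. Of 22 tested, 17 fell and 2 rose, with a median of -1.11 as deposited. It was -0.55, -0.57 and 0.11 under quantile, median and Sertoli scaling. The counts lower were 10 without busulfan plus L.J. replicate 3 and 9 without control replicate 3, and 1 rather than 2 was higher without any 1 of busulfan plus L.J. replicates 1 to 3, control replicate 1 or control replicate 3. Mgst1, a microsomal member, had 21.3, 13.9 and 13.6 FPKM in busulfan plus L.J. against 72.5, 48.3 and 79.1 FPKM in control, a log2 change of -1.97 ± 0.44. Gsta4, which clears lipid aldehydes, had 34.5, 30.8 and 37.8 FPKM against 141, 82 and 148 FPKM in control, a log2 change of -1.77. Mgst2 rose by 0.92, at means of 2.49 FPKM against 0.843 FPKM in control.

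Of 22 genes that p53 induces after DNA damage, 16 fell and 1 rose, with a median of -0.87 as deposited. It was -0.40, -0.42 and 0.14 under quantile, median and Sertoli scaling. Ccng1, a cyclin that p53 induces, had the largest fall, with 1.88, 2.03 and 2.25 FPKM in busulfan plus L.J. against 9.12, 5.95 and 12.9 FPKM in control, a log2 change of -1.70. Cdkn1a was not called, with overlapping groups and a change of -0.57 (adjusted p = 0.117 by limma) that was 0.06 after median scaling. Mdm2 changed by -0.35, and by 0.32 after median scaling. Its call was lost in 7 of the fits that left out 1 library. Polk, a DNA polymerase that copies past damaged bases and is abundant in testis, was the 1 that rose, by 0.47. Of 13 genes of antigen presentation, 5 fell and none rose (median -0.73, and 0.27 after Sertoli scaling), among them B2m, the light chain of class I molecules, at 61.6, 38.5 and 56.9 FPKM against 158, 118 and 337 FPKM in control. Of 15 inflammation genes 6 passed the filter (median -0.81, and 0.36 after Sertoli scaling), with 3 lower, 5 without L.J. replicate 3, and the chemokine Ccl5 higher by 0.93.

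Of 20 junction genes of the seminiferous epithelium, 11 fell as deposited and none rose. That share, 55%, is near the 53.5% of all genes. The median was -0.83 as deposited and -0.59, -0.33 and 0.44 under quantile, median and Sertoli scaling. Gja1, the gap junction protein of Sertoli cells, had 9.66, 10.2 and 9.93 FPKM in busulfan plus L.J. against 51.7, 30.7 and 44.6 FPKM in control, a log2 change of -1.95 ± 0.43. Of 20 genes of cholesterol synthesis, 16 fell as deposited (80%) and none rose. The median was -1.22 as deposited and -0.75, -0.60 and 0.12 under the same 3 scalings. Msmo1, a sterol methyl oxidase, had 13.2, 12.7 and 13.2 FPKM against 57.2, 49.5 and 66.4 FPKM in control, a log2 change of -2.06 ± 0.38. Insig1, which holds back sterol synthesis, had 3.4, 3.74 and 3.65 FPKM against 12.7, 12.4 and 17.7 FPKM in control, a log2 change of -1.72, so that makers and a brake of the pathway were both lower.

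In the lists of ribosome, oxidative phosphorylation, proteasome and cell cycle the share that fell as deposited was 71.4%, 78.9%, 78.9% and 87.5%, against 53.5% of all genes. Of 84 cytosolic ribosomal protein genes, 60 fell and none rose, with a median of -0.76 as deposited that was -0.95, -0.09 and 0.70 under quantile, median and Sertoli scaling. Of 76 oxidative phosphorylation genes, 60 fell and none rose (median -0.71, and -0.72, -0.05 and 0.73). Of 38 proteasome genes, 30 fell and 1 rose (median -0.72, and -0.68, -0.11 and 0.67 under the same 3 scalings). The 1 was Psma6, an alpha subunit, with 244, 227 and 228 FPKM in busulfan plus L.J. against 119, 149 and 111 FPKM in control, and 2 rose without L.J. replicate 3. Of 24 cell cycle genes, 21 fell and none rose (median -0.86, and -0.47, -0.24 and 0.47 under the same 3 scalings). Among them Mcm6, of the replication helicase, had 3.43, 4.18 and 3.26 FPKM against 10.6, 9.73 and 14.6 FPKM in control. Of 20 heat shock genes, 4 rose and 7 fell, with a median of -0.27 that was -0.51, 0.40 and 1.13 under quantile, median and Sertoli scaling. Hspa1l, the HSP70 form of spermatids, had 257, 234 and 261 FPKM in busulfan plus L.J. against 22.8, 75.2 and 17.4 FPKM in control, a log2 change of 2.96, and Dnajb13, of the axoneme, rose by 1.08. Without control replicate 3 the list had 2 higher and 6 lower.

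Many widely expressed genes have a relative that is used in male germ cells, which allows 2 genes of the same function to be set side by side. In 22 such pairs in which both genes were tested, the widely expressed gene fell in 16 and rose in none, with a median of -1.06. The testis gene rose in 3 and fell in 4, with a median of -0.36. Its change lay above that of its relative in 19 of 22 pairs as deposited and under each scaling. Median and Sertoli scaling divide all genes of a library by 1 number, so they could hardly alter that count. Over all genes tested 13% rose and 53.5% fell. The counts of falls turn with the scaling. The widely expressed gene fell in 9 pairs with quantile normalization, 4 with median scaling and 0 with Sertoli scaling, and the testis gene in 9, 1 and 0.

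Of the phosphoglycerate kinases, Pgk2 of late germ cells had 352, 323 and 334 FPKM against 117, 186 and 110 FPKM in control, a log2 change of 1.32 ± 0.34. Pgk1, its X-linked relative, had 7.52, 5.87 and 6.43 FPKM against 15.7, 11.1 and 19.8 FPKM in control, a log2 change of -1.09 that was 0.26 after Sertoli scaling. Aldoart1, an aldolase of sperm, had 77.9, 66.3 and 65.7 FPKM in busulfan plus L.J. against 19.9, 30.9 and 16.3 FPKM in control, a log2 change of 1.65 ± 0.32. The other testis gene that rose was Gapdhs, described above. Without L.J. replicate 3 the count was 5, and 1 widely expressed gene rose without L.J. replicate 1 or 3.

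Of the 22 testis genes, 15 were not called and 4 fell. Ldhc, the lactate dehydrogenase of germ cells from meiosis on, had 1683, 1412 and 1714 FPKM in busulfan plus L.J. against 1329, 1645 and 1244 FPKM in control, with overlapping groups and a change of 0.19 ± 0.30 (SE) on the log2 scale (adjusted p = 0.575 by limma) that was -0.48 with quantile normalization. Slc25a31, the ADP/ATP carrier of male germ cells, fell with 12.3, 13.1 and 10.2 FPKM against 28.5, 30.6 and 29.2 FPKM in control, a log2 change of -1.25 that was 0.16 after Sertoli scaling. Cstf2t, an RNA cleavage factor that stands in for an X-linked gene, fell by 0.96, and lay at 0.40 after Sertoli scaling. The number of testis genes that fell was 2 without busulfan plus L.J. replicate 1 or control replicate 1. It was 6 with L.J. replicate 1 left out and 11 with L.J. replicate 3 left out.

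**Figure D4:**
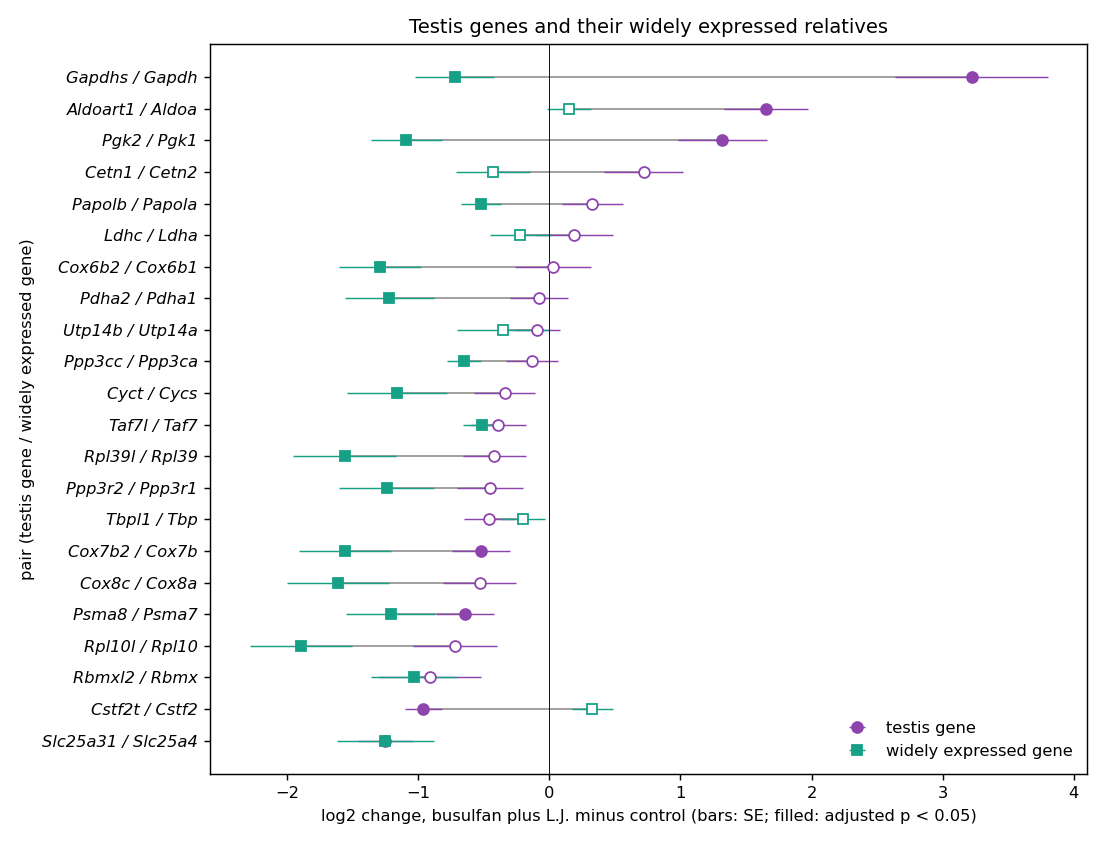
Log2 change with its SE, busulfan plus L.J. minus control, of 22 pairs of a testis gene (circles) and a widely expressed gene of the same function (squares), filled where the adjusted p was under 0.05. The circle lies to the right of the square in 19 of 22 pairs; the falls of both kinds are as deposited and number 0 after scaling to Sertoli markers.

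The sex chromosomes differed from the autosomes in their balance of rises and falls. Of 684 X-linked genes, 19.2% rose and 48.5% fell, against 12.5% and 54.5% of 13771 autosomal genes. Over the 19 autosomes the share that rose ran from 9.9% to 14.7%, the share that fell from 44.9% to 61.6% and the median change from -0.64 to -0.43. The X share that fell and the X median, -0.61, lay in these ranges. That median was 0.44 after Sertoli scaling. Predicted symbols made up 139 of the 684 X-linked and 930 of the 13771 autosomal genes. The X held more genes at both ends, with 15.4% above a log2 change of 1 and 30.6% below -1, against 7.23% and 21.1% of autosomal genes. Genes of 1 chromosome are not replicates, and the difference was not tested.

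The genes of the sex chromosomes named next, other than the ribosomal ones, were chosen after their values had been seen. Tmsb15a, a thymosin that binds actin, had 80.6, 67.3 and 83.6 FPKM in busulfan plus L.J. against 8.29, 16.5 and 6.27 FPKM in control, a log2 change of 2.88 ± 0.43. Tex13a, a testis-expressed gene, had 126, 133 and 179 FPKM against 24.9, 31.3 and 14.4 FPKM in control, a log2 change of 2.63. Among the falls, Slc25a5, an ADP/ATP carrier of mitochondria, had 11.4, 11.8 and 10.7 FPKM against 58.8, 38.4 and 65.5 FPKM in control, a log2 change of -2.13 ± 0.44. The 4 X-linked ribosomal protein genes tested, Rps4x, Rpl10, Rpl39 and Rpl36a, fell as deposited with a median of -1.72, while the 80 autosomal ones had a median of -0.73 with 56 lower. Rpl36a lay at 0.22 after Sertoli scaling. Rps4x had 16.7, 14.5 and 20.6 FPKM against 63.8, 47.2 and 102 FPKM in control, a log2 change of -1.92 that was -0.47 after Sertoli scaling. As background, the X chromosome is silenced in spermatocytes at meiosis.

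The Y chromosome held the largest share of rises. Of 127 Y-linked genes, 29.9% rose and 7.09% fell, with a median of 0.45 as deposited and 0.94, 0.92 and 1.5 under quantile, median and Sertoli scaling. Of these genes 114 have predicted symbols and belong to families of near-identical copies, so their reads may be split and single values are uncertain. Among the other Y-linked genes Rbm31y and Sry were the only called rises, so most of the 38 rises were of predicted symbols. Ddx3y, Uty (-1.06), Kdm5d (-0.87), Uba1y (-0.72) and Usp9y (-0.49) fell as deposited. After Sertoli scaling these 5 changes lay between -0.19 (Ddx3y) and 0.54 (Uba1y). The calls of Kdm5d and Usp9y were lost without some single libraries. Ddx3y, an RNA helicase made in many cells, had 2.72, 2.87 and 2.28 FPKM in busulfan plus L.J. against 8.71, 6.53 and 11.1 FPKM in control, a log2 change of -1.41 ± 0.34. Rbm31y, an RNA-binding gene, had 6.53, 6.88 and 6.36 FPKM against 1.11, 1.94 and 0.44 FPKM in control, a log2 change of 1.87 ± 0.29. Sry, the testis-determining gene, which mouse spermatids also transcribe, had 1.42, 2.7 and 2.57 FPKM against 0.25, 0.34 and 0.15 FPKM in control, a log2 change of 1.35 ± 0.26. With every control library under 1 FPKM, Sry passed the filter through other groups and could only differ in that direction.

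**Figure D5:**
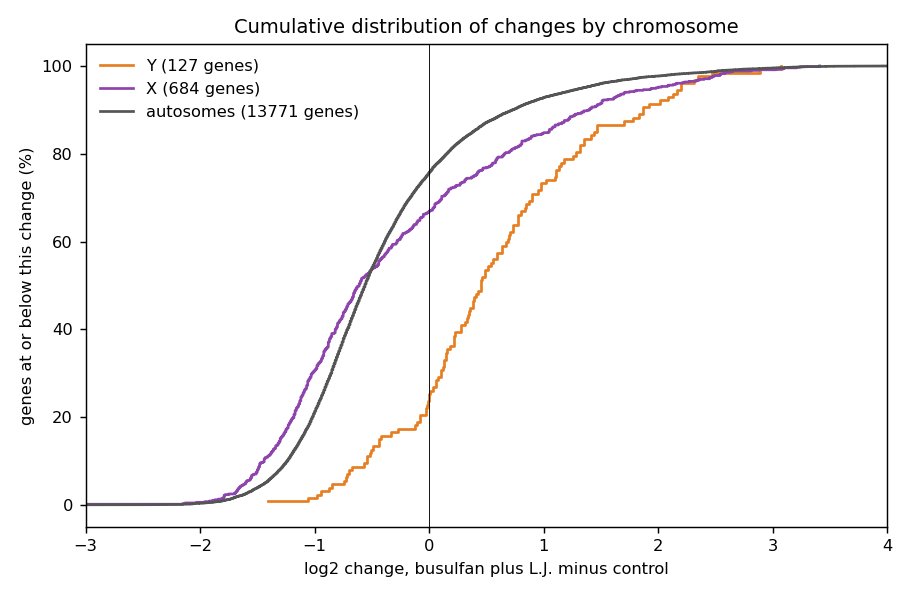
Share of genes (percent, vertical axis) at or below a given log2 change, busulfan plus L.J. minus control, for 127 Y-linked, 684 X-linked and 13771 autosomal genes. The Y curve lies to the right over most of the range, with a median of 0.45, and the X and autosomal curves cross near their middle as deposited and part above it, where 15.4% of X-linked and 7.23% of autosomal genes exceed 1.

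Beside the libraries labelled busulfan alone, the busulfan plus L.J. libraries gave no called difference. Of 14675 genes limma called 0 at an adjusted p under 0.05, with a smallest adjusted p of 1, and 109 genes, or 0.743%, had an unadjusted p under 0.05. The median absolute log2 difference was 0.10 between busulfan plus L.J. and busulfan and 0.72 between busulfan plus L.J. and control. The chromatin packing list lay at 8.44 to 8.61 in busulfan plus L.J. and 8.5 to 8.61 in busulfan, and the Sertoli list at 3.58 to 3.78 and 3.55 to 3.76. Without the L.J. group in the fit, 301 genes had an unadjusted p under 0.05 by limma and 0 were called. The count of small p-values thus rests in part on libraries outside the comparison. With 3 libraries a group, the lack of calls does not show that the 2 groups are alike. The comparison of busulfan with control called 63.7% of the genes. It shares the control libraries with that of busulfan plus L.J., so values are only set side by side. Prm2 changed by 3.73 in busulfan plus L.J. and by 3.62 in busulfan, Cyp11a1 by -2.19 and by -1.88, and Kit by -1.72 and by -1.35.

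Between the busulfan groups, 3 genes in each direction came nearest to a call by their unadjusted p. Vgll2, a transcription cofactor, had 26.5, 24 and 15.1 FPKM in busulfan plus L.J. against 0.07, 0.64 and 11 FPKM in busulfan, a log2 difference of 3.01 (unadjusted p = 0.00113 by limma, adjusted p = 1). In the control libraries it had 24.3, 14.2 and 22.3 FPKM, which overlapped busulfan plus L.J., and the change against control was 0.10 (adjusted p = 0.907 by limma). Zfp868, a zinc finger gene, had 4.23, 2.36 and 2.13 FPKM in busulfan plus L.J. against 5.97, 6.91 and 7.42 FPKM in busulfan, a log2 difference of -1.03 (unadjusted p = 0.000402 by limma), and 9.43, 9.13 and 9.8 FPKM in control. Rex1bd had 5.2, 2.06 and 3.35 FPKM against 8.58, 6.8 and 8.75 FPKM in busulfan (log2 difference -1.05) and 12.9, 10.2 and 17.6 FPKM in control. Gm20823, Gm4297 and Gm9780, all predicted genes, had log2 differences of 1.47, 0.86 and -1.56.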

How the data were processed

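RNA of whole testis was measured in 12 libraries, 3 for each of 4 groups. Expression came as FPKM values deposited by the authors. Reads were mapped with Bowtie 0.12.2 to mm10, per the submitters' processing notes, and the program and annotation behind FPKM were not given in the sources used here. FPKM hold no read counts, so depth is unknown and no count test was run. Values were taken as log2(FPKM + 1), genes with at least 1 FPKM in at least 3 libraries were kept, and 4 groups were fitted together with limma 3.58.1 (R 4.3.3, empirical Bayes with a trend) and Benjamini-Hochberg adjustment over 14675 genes at 0.05. The fit was tested on simulated data. Tables were made with pandas 2.3.3 (Python 3.11.15) and figures with matplotlib 3.10.9. Fold changes understate low genes. Exact permutation of 3 libraries against 3 cannot go below p = 0.1. Alternatives were other pseudocounts, filters, scalings, samples and variance models, a replicate block and leaving out each library. Of the table's identifiers, 99.2% matched RefSeq, and 26 symbols were in date form. The genes and lists were chosen with earlier results of these data known. Genes named were the 10 largest rises and falls with non-overlapping groups and at least 5 FPKM, the first 2 and up to 3 most changed members of each list, members against their list's direction, the 5 most abundant genes of each group, the gene pairs, and the 6 genes nearest to a call against busulfan. The results of 2 gene pairs are not reported here.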

Additional observations from a re-analysis of the deposited data

How the results depend on the processing

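The calls between busulfan plus L.J. and control numbered 9759 as deposited, 6013 with quantile normalization, 5942 with median scaling, 4055 with Sertoli scaling and 4192 at a log2 change of 1 or more in size, and ran from 6973 to 11258 when 1 library was left out. Those between busulfan plus L.J. and busulfan numbered 0, but 1 with no filter, and ran from 0 to 1 when 1 library was left out, the 1 arising without busulfan replicate 3. The cause was not tested. Same-numbered libraries did not deviate together (correlations of -0.039, -0.0174 and -0.0841), and the replicate block gave 9970 calls against control. After Sertoli scaling the medians turned above 0 for spermatogonia (0.35), meiosis (0.74), piRNA (0.79), myoid cells (0.04), matrix (0.06), endothelium (0.40), red cells (0.78), junctions (0.44), antioxidants (0.24), glutathione transferases (0.11), p53 (0.14), inflammation (0.36), antigen presentation (0.27), cholesterol (0.12), cell cycle (0.47), heat shock (1.13), ribosome (0.70), proteasome (0.67), oxidative phosphorylation (0.73), the X (0.44) and the autosomes (0.67). After median scaling those of piRNA (0.04), red cells (0.30) and heat shock (0.40) did, and red cells also with quantile normalization (0.14). The red cell median ran from -0.54 (without busulfan plus L.J. replicate 3) to 0.11 (without busulfan plus L.J. replicate 2) when 1 library was left out. The epididymal median was -0.04 with no filter and -1.08 at a minimum of 5 FPKM. Genes that turned above 0 after Sertoli scaling were Cstf2t (0.40), Dmrt1 (0.20), Dnah1 (0.77), Dnah17 (0.86), Meiob (0.28), Pgk1 (0.26), Piwil2 (0.38), Rnf8 (0.24), Rpl36a (0.22), Sirt1 (0.20), Slc25a31 (0.16), Spag6l (0.87), Spo11 (0.19) and Tdrd1 (0.50). After median scaling Dnah1 (0.03), Dnah17 (0.08) and Spag6l (0.07) did, and Ldhc fell to -0.48 with quantile normalization. FPKM carry no depth, so low genes have an unknown counting error.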
